A study of Mus musculus with 2 samples.

Results

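The Mir297, Mir466, Mir467 and Mir669 genes in the Sfmbt2 gene of mouse chromosome 2 form one of the largest microRNA clusters of the mouse genome, and their levels were read here in the cerebral cortex. The members are all microRNA genes that GENCODE M21 places between 10466663 and 10518279 of chromosome 2 (mm10) under a name that starts with one of those 4 family names. They were 71 of the 2202 microRNA genes in the deposited tables. The study sequenced short RNA of the left cerebral cortex. It used 2 females aged 36 days, both of the strain B6CASTF1/J, a first-generation hybrid of C57BL/6J and CAST/EiJ. The mice form 1 group for which the labels name no treatment, they are numbered as separate animals under a single donor code, and each gave 1 library, so there is no comparison of conditions. Means are given ± SD with n = 2 throughout. Levels are sense-strand read counts per hairpin gene or CPM, in which a library's sense counts are scaled to a fixed total (its sense counts were 1930234 in mouse 1 and 1863876 in mouse 2).

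Sfmbt2 codes for a Polycomb group protein with MBT domains, and in extraembryonic tissue it is imprinted and expressed from the paternal allele. The microRNA cluster in its intron is specific to rodents, arose by repeated duplication, and is best known from placenta and embryonic stem cells. In mice its loss impairs the placenta. A microRNA hairpin is cut from the host transcript and then trimmed to a mature arm, whose seed (bases 2 to 8) pairs with target mRNAs, so copies with the same mature arm act as 1 microRNA. A read of such an arm also fits every copy, and here a read that fitted several places in the genome entered no gene count. The tables hold no allele information, so imprinting was not measured.

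Of the 71 members, 0 matched an entry of the RefSeq microRNA table by symbol. The same families have 10 genes elsewhere in the genome, and 8 of these have a mature entry there (GRCm38.p6). They are shown because they give the kind of sequence that marks these families, runs of alternating UG or CA, with the seed in capitals.
mmu-miR-467g: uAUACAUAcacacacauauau
mmu-miR-467f: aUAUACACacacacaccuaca
mmu-miR-467h: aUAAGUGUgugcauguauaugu
mmu-miR-466i-3p: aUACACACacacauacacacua
mmu-miR-466j: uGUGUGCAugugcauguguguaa
mmu-miR-466k: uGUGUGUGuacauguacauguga
mmu-miR-466q: gUGCACACacacacauacgu
mmu-miR-669n: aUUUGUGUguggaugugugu
None of the 71 hairpins (GENCODE M21) held any of these 8 mature sequences whole, but many held the same 7 letters as a seed. The letters AUACAUA, the seed of miR-467g, stood on the sense strand of 62 of the 71 hairpins, against 3.80% of the 2131 hairpins outside the cluster. The letters UACACAC stood in 46 of 71 (6.29% of the others), GUGUGUG in 43 (7.84%), GUGUGCA in 40 (3.10%), UGCACAC in 12 (2.16%), UAUACAC in 10 (4.83%) and UUUGUGU in 9 (2.25%). By contrast UAAGUGU, the seed of miR-467h, was found in 1 member (0.610% of the others), and that member was Mir467e, a well-read member described below. Several of these words overlap each other, and a word inside a hairpin need not be a seed of its mature arm, so these are counts of letters and not of targets.

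The hairpins of the cluster share a base composition with their relatives elsewhere in the genome. Steps of TG, GT, CA or AC made up a median of 51.2% of the steps from one base to the next along a member, against 27.0% over all 2202 hairpins, and a purine next to a pyrimidine stood at 86.3% of the steps against 44.8%. The median GC content was 36.1% against 50.8%. The 10 family genes outside the cluster had medians of 55.4%, 88.8% and 38.9% in the same 3 measures, and the 48 microRNA genes of Sfmbt2 with other names had 38.3%, 69.5% and 38.9%. All 71 lay on the plus strand, as Sfmbt2 does (10370510 to 10595253), and none overlapped one of its exons. They lay in a single intron of 62472 bases (10461473 to 10523944), which is intron 10 or intron 11 of the 2 transcripts that span it, each of 23 exons. Neighbouring members were a median of 209 bases apart. In the middle of the cluster they form a tandem repeat in which a Mir467, a Mir466 and a Mir669 gene follow each other, an order found 11 times, and neighbouring Mir467a genes started a median of 2462 bases apart (2413 to 4880).

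A small number of members carried the counted reads. The cluster held 2279 sense counts in mouse 1 (0.118% of all sense counts, 95% Clopper-Pearson interval 0.113% to 0.123%) and 2130 in mouse 2 (0.114%, 0.109% to 0.119%), a share of 0.116% ± 0.00268. The intervals overlap, but overlap is not a test, and the difference in share between the mice was not tested. At least 1 count in either mouse was found for 11 of the 71 members, or 15.5%, against 32.8% of all 2202 genes. A level of 10 CPM in both mice, used here as the threshold of detection, was reached by 7 members, or 9.86%, against 13.8% of all genes and 25.6% of the 1174 genes with a Mir symbol. The other 60 members had no count in either mouse. For a member whose reads can all be counted, a 0 allows up to 3 counts (1.55 CPM in mouse 1 and 1.61 CPM in mouse 2). Reads that fitted several places entered no count, so for members with shared sequence a 0 sets no such limit. All intervals and floors cover counting error only, as reads without stated molecular identifiers can be PCR copies. Every count of a member was on the sense strand, with 0 antisense counts in both mice.

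The Mir467 family led the cluster in counted reads, from which reads that fitted several places are missing. Its 14 members held 1397 counts in mouse 1 and 1224 in mouse 2, or 59.4% ± 2.71 of the cluster's counts, and all of them came from 3 genes. Mir467d (10507630 to 10507714) was the highest member, with 1000 counts (518 CPM) in mouse 1 and 625 counts (335 CPM) in mouse 2, a mean of 427 ± 129 CPM. This placed it at rank 130 and rank 152 among all 2202 genes. Mir467e (10505721 to 10505807), 1.82 kb upstream of it, had 327 counts (169 CPM) and 528 counts (283 CPM), a mean of 226 ± 80.5 CPM. Mir467c (10473931 to 10474027), at the other end of the repeat, was even between the mice at 70 and 71 counts (36.3 and 38.1 CPM). The remaining 11 members, Mir467b and the 10 Mir467a copies, were at 0 in both mice.

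The Mir669 family was the largest by number and second by counted reads, with the same limit. Its 29 members held 881 counts in mouse 1 and 905 in mouse 2, or 40.6% ± 2.71 of the cluster's counts, with 4 members detected. Mir669c (10509296 to 10509404) was even between the mice, with 642 counts (333 CPM) in mouse 1 and 616 (330 CPM) in mouse 2, a mean of 332 ± 1.49 CPM. Mir669o (10514300 to 10514395) was likewise even, with 166 counts (86.0 CPM) and 158 counts (84.8 CPM). Lower levels were read for Mir669l (10468971 to 10469068), at 38 counts (19.7 CPM) in mouse 1 and 64 (34.3 CPM) in mouse 2. Mir669h (10518155 to 10518279), the last member of the cluster, had 24 counts (12.4 CPM) and 28 counts (15.0 CPM), just above the threshold of detection. Mir669e (10467495 to 10467613) passed 10 CPM in mouse 2 alone, with 9 counts (4.66 CPM) in mouse 1 and 39 (20.9 CPM) in mouse 2. Mir669f and Mir669d, named here after their values were seen, had 1 count in mouse 1 and 0 in mouse 2. The other 22 members were at 0, among them all 12 copies of Mir669a, a microRNA known for holding back the muscle regulator MyoD in heart progenitors.

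The Mir466 and Mir297 families were nearly absent from the counts. Of 23 Mir466 members only Mir466n (10513741 to 10513834) had a count, 1 in each mouse, which is below the 3 counts that a 0 allows. The 22 others were at 0, and these include Mir466m (10466663 to 10466746), the first member of the cluster, and Mir466l, known for binding the Il10 mRNA in macrophages. All 5 Mir297 members were at 0 in both mice. At this depth a level of these 2 families below the floor cannot be told from absence, and reads that fitted several places are missing from the counts.

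Within each mouse the order of the high members was clearer in mouse 1 than in mouse 2. In mouse 1 Mir467d took 43.9% of the cluster's counts (41.8% to 45.9%), Mir669c 28.2% (26.3% to 30.1%) and Mir467e 14.3% (12.9% to 15.9%), and these counting intervals do not overlap. In mouse 2 Mir467d took 29.3% (27.4% to 31.3%), Mir669c 28.9% (27.0% to 30.9%) and Mir467e 24.8% (23.0% to 26.7%), so the first pair could not be ordered while Mir467e was lower. Mir669o followed at 7.28% and 7.42%. These 3 leading genes together held 84.7% ± 2.37 of the cluster's counts, and the 8 genes with a mean of 10 CPM or more held 99.9% ± 0.0599. Reads of a mature arm do not grow with hairpin length, so CPM was not divided by it. Per 100 bases of hairpin the order of the 8 was the same in mouse 1, while in mouse 2 Mir467e (326 CPM per 100 bases) moved above Mir669c (303).

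Along the intron the counts stood at the ends of the cluster, with a long stretch without counts between them. The 13 members from Mir466m to Mir467c, over 7.37 kb, held 119 counts in mouse 1 and 174 in mouse 2 (5.22% and 8.17% of the cluster's counts), and 5 of them had a count. The next 38 members, from Mir466b-1 (start 10474219) to Mir669a-12 (end 10503877), had 0 counts in both mice over 29.7 kb, the longest run of members without a count. The following 20 members, from Mir467e to Mir669h over 12.6 kb, held 2160 and 1956 counts (94.8% and 91.8%), and 6 of them had a count. The 3 highest members lay in a stretch of 3.68 kb at the start of that end, with Mir466p, Mir466 and Mir297c between them at 0. The counts of neighbours on the same host transcript therefore differed widely, as Mir297c at 0 lies directly before Mir669c at 642 and 616 counts. Reads that fitted several places are missing from these counts, so a difference in level between such neighbours was not tested. The bounds of these stretches were set after the values were seen.

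**Figure D1:**
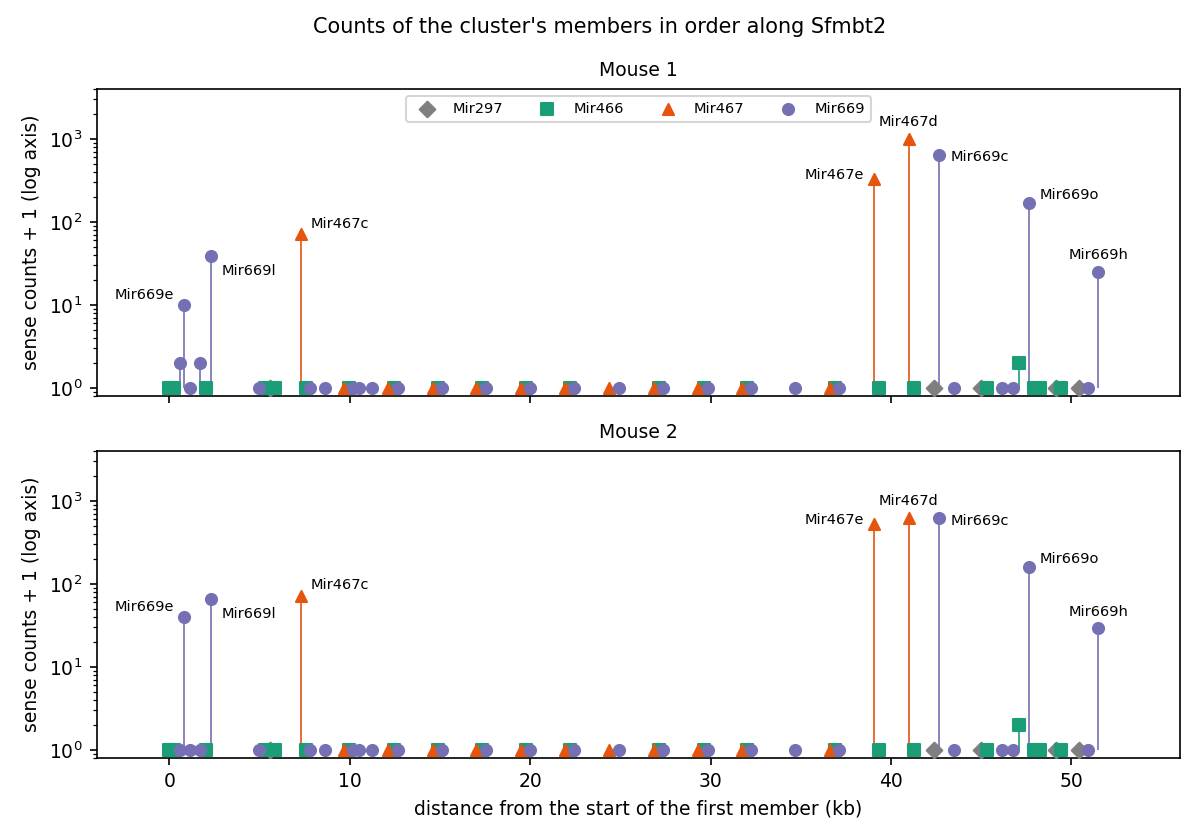
Sense counts plus 1 (log axis) of the 71 members in mouse 1 (top) and mouse 2 (bottom) against the distance in kb from the start of the first member, with colour and marker for the family and names for the 8 members with a mean of 10 CPM or more. Both mice show the same 2 groups of counted members at the ends, the higher one around Mir467e, Mir467d and Mir669c, and 38 members in a row at 0 between them.

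Sequence shared between hairpins was most extensive in the stretch without counts. For each hairpin the runs of 20 bases were compared with all other hairpins of the annotation on both strands, and 70 of the 71 members shared at least 1 run with a hairpin at another place, against 49.4% of all 2202. The exception, Mir466g, shared at most 16 bases and had no count. In 32 members no run of 20 bases was their own, and 24 members were identical over the whole hairpin to another member. These include 9 copies of Mir669a, 6 of Mir467a and a further set of 3 Mir467a copies. In the middle stretch without counts 31 of 38 members had no run of their own and the median longest run shared with another hairpin was 84 bases. In the upstream end no member lacked a run of its own, and in the downstream end 1 of 20 did (Mir669a-2), with median longest shared runs of 51 and 47 bases.

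**Figure D2:**
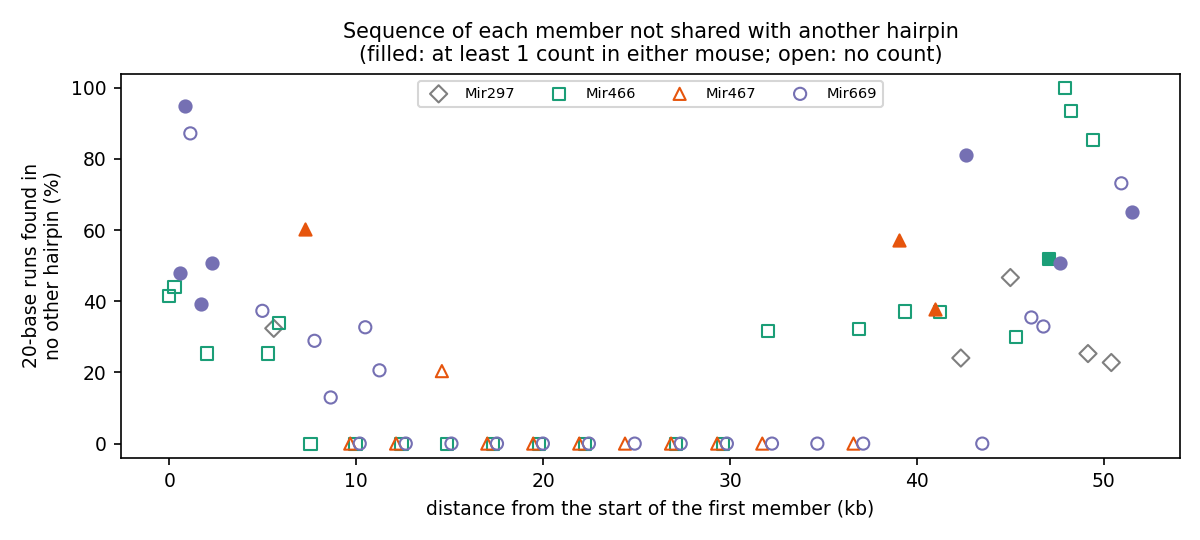
Share of each member's 20-base runs found in no other hairpin (%), against the distance in kb from the start of the first member, filled where the member had at least 1 count in either mouse and open where it had none. The middle of the cluster lies mostly at 0%, all filled points lie at 37.9% or above, and 5 open points lie above 50%.

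The 11 members with a count had a median of 52.0% of runs of their own (37.9% to 95.0%), and the 60 without a count had a median of 0% (0% to 100%). None of the 32 members without a run of their own had a count. Reads that fitted several places entered no count, so this 0 was largely fixed in advance by the counting. The same holds for the matching class of other genes below. These 32 also set the median of 0% among the 60. Of the 26 members with more than 0% and up to 50%, 3 had a count, and of the 12 above 50% and under 100%, 8 had one. The same division over the 1103 other genes with a Mir symbol gave 0 of 18, 3 of 26 and 96 of 146, and for hairpins that share no run 569 of 913. The shares of genes with any count were thus close in the 2 sets, 11.5% in both up to 50%, and 66.7% against 65.8% above it. Levels were less alike. Up to 50% the highest mean level was 427 CPM in the cluster and 2.36 CPM in the others. Above it the medians were 13.3 and 2.39 CPM and the highest levels 332 and 19751 CPM. Some members lay near the bound of 50%, with Mir669f at 48.0% and Mir669o and Mir669l at 50.6%. Whether shared sequence accounts for the counts was not tested. Within the counted members Mir467d, the highest in level, had the lowest share of them (37.9%) and Mir669e, at 95.0%, was among the lowest in level. Mir669c had 81.1%, Mir669h 65.1%, Mir467c 60.3%, Mir467e 57.4%, Mir669o 50.6% and Mir669l 50.6%.

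Not every member with distinct sequence had a count. Mir466g (100%), Mir466h (93.5%), Mir669b (87.2%), Mir466l (85.3%) and Mir669i (73.1%), which were picked out after their values were seen, had 0 counts in both mice although most of their hairpin was found in no other one. Mir466h is known as a microRNA that promotes cell death under nutrient stress. Copies of the sequence outside annotated hairpins were not searched for, and how many reads of each member were set aside because they fitted several places is unknown. Among mapped reads the share that fitted several places was 50.9% (mouse 1) and 51.2% (mouse 2). A lack of counts for a member with shared sequence and a lack of the microRNA cannot be told apart in these tables.

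**Figure D3:**
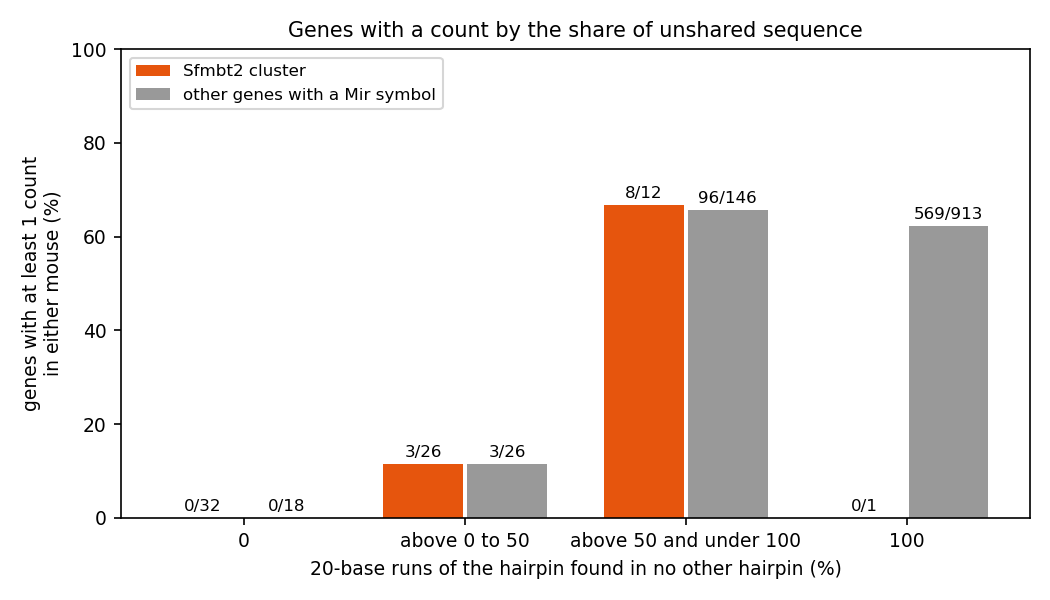
Share of genes with at least 1 count in either mouse (%), by the share of the hairpin's 20-base runs found in no other hairpin, for the cluster and for the other genes with a Mir symbol, with the number of genes above each bar. Bars of both sets are at 0% where no run was a hairpin's own, at 11.5% up to 50%, and at 66.7% and 65.8% between 50% and 100%, while the last class holds a single member of the cluster.

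The share of the cluster as a whole was close in the 2 mice (0.118% and 0.114% of sense counts), while some members differed. Ratios use TMM library sizes and are given as log2 of mouse 2 over mouse 1 with a 95% counting interval, and an exact binomial test with Benjamini-Hochberg adjustment over the 324 genes at a mean of 10 CPM or more compared the libraries, not any condition. Each mouse gave a single library, so animal and library preparation cannot be told apart. Of the 8 members tested, 4 passed the test, against 74.7% of the 324 genes, so a difference beyond counting error was the usual outcome for a gene of these libraries. Both the test and 2-fold were passed by 1 member, against 19.4% of the 324 genes. This was Mir669e, higher in mouse 2 (14.2% of the 324 genes were called in that direction, and 5.25% in the other), with a log2 ratio of 2.12 (1.05 to 3.35, adjusted p = 1.71e-05 by the exact test), on 9 and 39 counts. The median log2 ratio of the 8 was 0.12, beside −0.0038 over all tested genes, and the median size of the ratio without its sign was 0.45, beside 0.53.

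The 2 leading Mir467 genes differed in opposite directions between the mice. Mir467d had 1000 counts in mouse 1 and 625 in mouse 2, a log2 ratio of −0.68 (−0.82 to −0.53, adjusted p = 4.2e-20 by the exact test), and Mir467e had 327 and 528 counts, a log2 ratio of 0.69 (0.49 to 0.90, adjusted p = 1.17e-11). Each lies under 2-fold, at 1.60-fold and 1.62-fold, and the median size over all tested genes was 1.44-fold. The ratio of Mir467d to Mir467e within a library, which no scaling touches, was 3.06 in mouse 1 and 1.18 in mouse 2. Mir669l was higher in mouse 2 as well (log2 ratio 0.75, 0.15 to 1.37, adjusted p = 0.0144 by the exact test). For the other 4 the counting interval included 0, with log2 ratios of −0.06 for Mir669c (−0.22 to 0.10), −0.07 for Mir669o (−0.39 to 0.25), 0.02 for Mir467c (−0.47 to 0.52) and 0.22 for Mir669h (−0.61 to 1.07). For counting error alone the bounds of Mir669c, Mir669o and Mir467c thus lay within 2-fold, while those of Mir669h reach past 2-fold on 24 and 28 counts. The intervals do not cover differences between animals or library preparations.

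**Figure D4:**
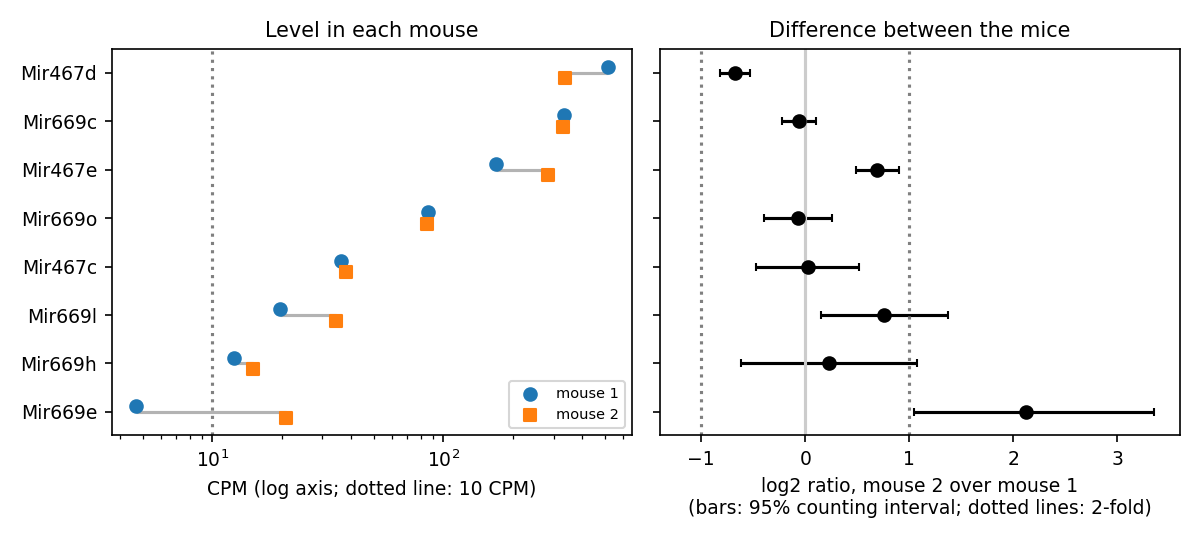
Left, CPM (log axis) of the 8 tested members in mouse 1 (circles) and mouse 2 (squares), with a dotted line at 10 CPM; right, log2 ratio of mouse 2 over mouse 1 with the 95% counting interval and dotted lines at 2-fold. Mir467d lies to the left of 0 and Mir467e to the right, Mir669c and Mir669o lie on 0, and Mir669e lies beyond 2-fold with the widest interval.

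Related genes nearby and elsewhere had almost no counts. The 10 family genes outside the cluster (Mir297-1, Mir466f-4, Mir466i, Mir466j, Mir466k, Mir466q, Mir467f, Mir467g, Mir467h and Mir669n) held 3 counts in all, 2 in mouse 1 and 1 in mouse 2, from Mir466q on chromosome 3. Their median share of own sequence was 70.0%, above the 22.8% of the cluster's members. Within Sfmbt2 a further 48 microRNA genes have names outside the 4 families, 46 of them in the interval of the cluster. Of these 48, 0 had a count, against 32.8% of all 2202 genes. In 47 of the 48 a run of 20 bases was shared with another hairpin. No run was their own in 22 of them, so for these a 0 was largely fixed in advance by the counting. Another large group, the 66 microRNA genes of the imprinted Dlk1-Dio3 domain on chromosome 12, had 48 genes detected (72.7%). It held 15.0% ± 1.93 of sense counts and had 8 hairpins that share a run of 20 bases. The Sfmbt2 members thus stood far below that group in share of counts and far above it in shared sequence, and the part of the latter in the former was not tested.

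The libraries carried the markers of brain tissue. Of 10 neuronal microRNA genes 7 were detected and all had a count (summed level 194502 and 195168 CPM in mouse 1 and mouse 2), the exceptions being the 3 Mir124a copies at 4 counts or fewer. Reads that fitted several places entered no count. Low counts of genes in several copies, such as Mir124a and the muscle genes Mir1a and Mir133a, therefore need not show a low level. Summed levels were 2746 and 5119 CPM for 2 oligodendrocyte genes, 11276 and 22380 CPM for the endothelial Mir126a, 53.9 and 149 CPM for 2 leukocyte genes, 712 and 128 CPM for 2 erythroid genes, 255 and 197 CPM for 5 epithelial genes, 45.6 and 40.2 CPM for the liver gene Mir122, and 38.3 and 25.8 CPM for 6 muscle genes, 4 of them at 0. Of 13 genes known from embryonic stem cells and trophoblast, where the Sfmbt2 cluster is best known, none was detected, 9 were at 0 (Mir290a, Mir290b, Mir291a, Mir291b, Mir292b, Mir293, Mir294, Mir295 and Mir367), and the Mir302 genes held 3 counts in mouse 1 and 7 in mouse 2 (summed level 1.55 and 3.76 CPM). The counted members of the cluster stood beside stem cell and trophoblast markers at or near 0. Which cells their reads came from was not tested.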

How the data were processed

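The authors deposited whole-number read counts for every gene, 1 headerless table a library, on mm10 and GENCODE M21 according to the README notes. No source names the 3 count columns; they were read as unstranded, sense and opposite-strand counts, and the sense column was used. For the aligner, the counter and the trimming nothing is given in the sources used here. The 4 lines that name no gene, among them reads at several places (34.6% and 37.2% of reads in mouse 1 and mouse 2), were left out of library sizes. The strain carries CAST alleles, and loss of reads that differ from mm10 was not tested.

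CPM was computed over the sense total. TMM sizes came from edgeR 4.0.16 and size factors for an alternative from DESeq2 1.42.0. The two-sided exact binomial test (scipy 1.17.1) was tested on simulated data with known folds and counting error only. The real libraries differed beyond counting error for most tested genes, so the simulation does not give the error rate of the calls made here. Hairpins came from the M21 transcripts, and genes on the same bases counted as 1 place. The members and lists were chosen with earlier results of these data known. Named genes were members at 10 CPM in both mice or a mean of 5 CPM, the first and last member, the most counted of each family and those past the test and 2-fold. Alternatives were another column, library size, CPM minimum, filter, run length and leaving out each mouse.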

Additional observations from a re-analysis of the deposited data

How the results depend on the processing

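At 50 CPM in both mice 4 members were detected in place of 7, and without one of the mice 7 or 8. The shares of all genes at these settings are not given, so the changes cannot be set against those of other genes. The cluster held 0.126% in the unstranded column, where its counts were the same and the totals were lower (1795648 and 1716054, with 134651 and 147893 reads ambiguous), and 0.0471% of all mapped reads. Without the most counted member of each family the Mir467 share was 64.9%, the Mir669 share 35.1% and the Mir466 share 0%. Mir669e was the only member called between the mice under each of the 4 other fits. In all, 30 of 36 recomputed main values and 61 of 64 values of single members moved by less than their spread or kept their side of the threshold. These counts include the shares and CPM recomputed without a mouse, which cannot move by more than the SD of both mice. Mir669e, for example, moved from 12.8 CPM to 4.66 or 20.9 CPM and still counted as unmoved. Such values were fixed in advance and do not test how stable a result is. The comparison of the mice leaves no library to spare, so none was left out there. No paired analysis was possible because the labels give 1 group. Low counts limit Mir669e and Mir669h.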
